A study of Homo sapiens with 8 samples.

Results

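CHD4 occupied 2159 regions of the SCC9 genome that recurred with DOC1 and held no peak without it, 11.5% of the 18808 regions found in any CHD4 library. They are called recurrent DOC1-only regions here. To find them, overlapping peaks (1 bp or more) of the 6 deposited peak lists were merged into regions, and a region was kept if 2 or 3 DOC1 libraries and no lacZ library had a peak in it. The regions were thus chosen by the presence and absence of peaks in these same lists, so their number, their libraries and their strength in the DOC1 lists are descriptions and carry no test. "DOC1-only" means that no overlapping peak was called in a lacZ library, not that CHD4 was absent.

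SCC9 is an established squamous carcinoma line of the tongue. Chromatin immunoprecipitation and sequencing (ChIP-seq) was done with an antibody to CHD4 in SCC9 cells labelled -DOC1 (lacZ 1, lacZ 2 and lacZ 3) and in SCC9 cells labelled +DOC1 (DOC1 1, DOC1 2 and DOC1 3). Each state also had 1 library with control IgG, which was not analysed here as a sample of its own. The labels do not say whether libraries 1 to 3 of a state were separate cultures, nor how DOC1 was introduced, and peak lists do not measure DOC1 itself. The DOC1 lists held 7834, 3448 and 11032 peaks in the order 1 to 3, and the lacZ lists 7027, 2812 and 4723. Positions are in hg19.

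CHD4 is the motor of NuRD, a complex that joins nucleosome remodelling to histone deacetylation and is best known for holding promoters and enhancers in a repressed or finely tuned state. DOC1, the product of CDK2AP1, is a small accessory subunit of NuRD whose loss is common in oral squamous carcinoma. The series set out to compare where NuRD sits with and without this subunit, against the background of the epithelial-mesenchymal transition, in which epithelial cells give up adhesion and polarity for a migratory state, and of SWI/SNF, a remodelling complex that often opens chromatin.

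Gene positions on hg19 are recalled from general knowledge and rounded to 1 kb throughout. Recurrent DOC1-only regions lay within 1 kb of the start of several genes that the results below turn on, and the promoter sequences of 6 of them are shown so that these stretches can be read. They are FN1 (fibronectin), TNC (tenascin C) and CD44 (a hyaluronan receptor) from the matrix and adhesion genes, SMARCE1 from SWI/SNF, and KIF3B and SNRPB2, at the starts of which stood regions that ranked high in every DOC1 list that held them. Each run is the 250 bases before the start in RefSeq, GRCh38.p14, read 5′ to 3′ on the gene's strand. The peaks are placed on hg19, so which of these bases lay under a peak was not determined. Capitals mark 3 motifs, searched on both strands and allowed to overlap. They are TGANTCA (a loose form of the AP-1 site, N being any base), CAGGTG or its complement CACCTG (the E-box of SNAI and ZEB factors), and GGGCGG or its complement CCGCCC (the GC box).

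FN1 (chr2:215436069-215436318, minus strand): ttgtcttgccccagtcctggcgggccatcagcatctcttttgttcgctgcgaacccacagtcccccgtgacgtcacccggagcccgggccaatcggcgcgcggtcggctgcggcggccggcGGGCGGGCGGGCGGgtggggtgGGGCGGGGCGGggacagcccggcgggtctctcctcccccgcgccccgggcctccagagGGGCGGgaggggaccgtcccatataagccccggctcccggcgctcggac

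TNC (chr9:115118158-115118407, minus strand): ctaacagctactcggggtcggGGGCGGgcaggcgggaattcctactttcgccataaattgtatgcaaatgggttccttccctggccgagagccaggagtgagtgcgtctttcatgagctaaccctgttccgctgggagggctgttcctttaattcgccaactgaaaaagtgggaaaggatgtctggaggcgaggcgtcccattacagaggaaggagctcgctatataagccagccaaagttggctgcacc

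CD44 (chr11:35138921-35139170, plus strand): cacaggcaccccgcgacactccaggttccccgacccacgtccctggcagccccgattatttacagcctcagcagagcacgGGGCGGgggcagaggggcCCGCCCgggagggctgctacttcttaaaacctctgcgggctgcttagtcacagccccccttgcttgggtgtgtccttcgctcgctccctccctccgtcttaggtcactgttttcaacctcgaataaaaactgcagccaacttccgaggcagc

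SMARCE1 (chr17:40647819-40648068, minus strand): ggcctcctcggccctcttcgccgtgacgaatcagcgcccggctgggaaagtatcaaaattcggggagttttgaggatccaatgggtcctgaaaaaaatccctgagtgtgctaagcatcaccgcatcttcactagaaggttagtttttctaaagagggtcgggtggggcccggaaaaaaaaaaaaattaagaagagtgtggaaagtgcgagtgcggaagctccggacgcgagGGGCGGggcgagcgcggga

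KIF3B (chr20:32277401-32277650, plus strand): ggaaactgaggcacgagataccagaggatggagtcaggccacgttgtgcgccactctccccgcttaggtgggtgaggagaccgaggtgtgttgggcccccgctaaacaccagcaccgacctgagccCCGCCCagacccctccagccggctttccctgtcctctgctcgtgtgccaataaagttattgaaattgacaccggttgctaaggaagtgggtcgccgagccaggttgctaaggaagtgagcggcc

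SNRPB2 (chr20:16729776-16730025, plus strand): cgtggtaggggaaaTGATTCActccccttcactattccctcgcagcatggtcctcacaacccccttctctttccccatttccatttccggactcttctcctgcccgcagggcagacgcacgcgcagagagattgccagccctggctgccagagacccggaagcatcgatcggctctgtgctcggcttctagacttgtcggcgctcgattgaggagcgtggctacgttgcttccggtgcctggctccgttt

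The GC box stood in 5 of the 6 promoters, and in 42.6% of all 35116 promoter entries of the same length. FN1 held 6 of them, CD44 held 2, and TNC, SMARCE1 and KIF3B held 1 each. TGANTCA was found in SNRPB2 alone, as TGATTCA (6.57% of all entries hold TGANTCA), and the E-box in none of the 6 (17.5% of all entries). No other form of the AP-1 site was searched. The 6 promoters ranged in GC content from 54.4% in SMARCE1 to 76.4% in FN1, with a median of 58% over all entries. A match is a string of letters and not a measured site, and a motif missing from this window says nothing of the factor.

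Most recurrent DOC1-only regions were shared by the same pair of libraries. DOC1 1 and DOC1 3 alone held 1816 of the 2159 (84.1%), all 3 DOC1 libraries held 184 (8.52%), DOC1 2 and DOC1 3 held 106 (4.91%), and DOC1 1 and DOC1 2 held 53 (2.45%). DOC1 1 and DOC1 3 are also the longest DOC1 lists. Without DOC1 1 the regions numbered 288, without DOC1 3 they numbered 235, without DOC1 2 they numbered 2001, and without lacZ 1 they numbered 2929. Each list was also reduced to the 2812 peaks with the largest deposited −log10 p-value, with ties settled by fold. There were then 556 regions, of which 342 (61.5%) were among the 2159, and DOC1 1 and DOC1 3 alone held 52.3%. The number and the make-up of these regions thus changed with the libraries used and with the cut to equal length. The cut removes peaks, so part of that fall is by construction. What part the length of the lists has was not tested.

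**Figure D1:**
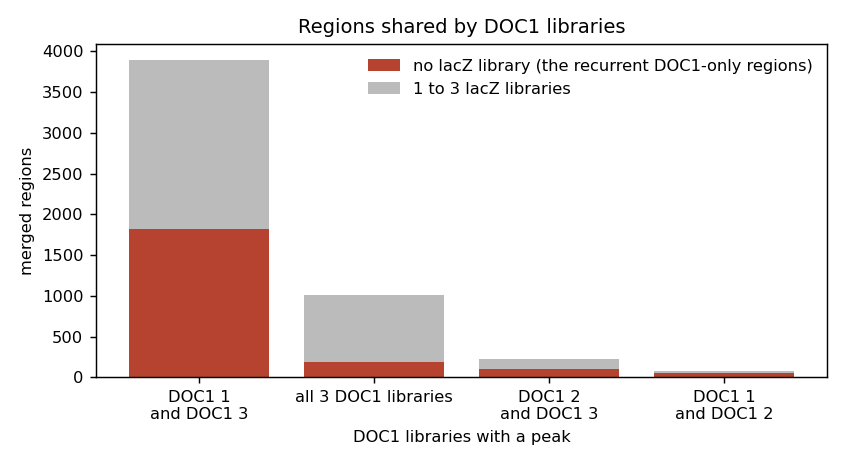
Merged regions (vertical axis, number of regions) by the DOC1 libraries that share them; red is the part with no lacZ peak and grey the part with a peak in 1 to 3 lacZ libraries. The pair DOC1 1 and DOC1 3 has 1816 regions without and 2079 with a lacZ peak, while the regions of all 3 DOC1 libraries are mostly grey (821 of 1005).

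Among all regions that recurred with DOC1, 2159 of 5199 (41.5%) held no lacZ peak. The share was 46.6% for DOC1 1 and DOC1 3 alone, 46.7% for DOC1 2 and DOC1 3, and 73.6% (53 of 72) for DOC1 1 and DOC1 2, but 18.3% where all 3 DOC1 libraries met. The mirror image, regions of 2 or 3 lacZ libraries and no DOC1 library, numbered 844 (4.49% of all regions and 21.5% of the 3932 that recurred with lacZ). The difference between the counts was not tested.

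Regions just outside the rule fell on either side of it. There were 8269 regions in 1 DOC1 library and no lacZ library, and 976 in 2 or 3 DOC1 libraries and 1 lacZ library. In 756 of the 976 (77.5%) the lone lacZ peak was in lacZ 1, the longest lacZ list, in 172 it was in lacZ 3 and in 48 in lacZ 2. Those lone lacZ peaks were weak ones. Their median fold enrichment stood at the 27.9th, 23rd and 29th percentile of all peaks in lacZ 1, lacZ 2 and lacZ 3.

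In strength the recurrent DOC1-only regions were ordinary peaks. Fold enrichment is the scaled reads at a peak's summit over the local background, each plus 1, as the authors' peak caller scored it. The scaling factor, solved from the lists, was 1.0 in DOC1 1 and DOC1 2 and 0.5624 in DOC1 3. Reads printed here are whole reads before scaling, and backgrounds are on the scaled side. In DOC1 3 reads and background are thus on different scales. A fold percentile is a peak's place among all peaks of its own list. The median percentile was 51.2 in DOC1 1 (fold 5.86, n = 2053), 51.6 in DOC1 2 (fold 5.23, n = 343) and 55.9 in DOC1 3 (fold 5.30, n = 2106). Folds ranged from 1.97 to 24.4, from 2.41 to 22.1 and from 1.87 to 16.3 in these lists. Their median summit held 15, 16 and 33 reads, recovered from the deposited fold and p-value, over a background of 1.54, 1.94 and 2.65 reads. In length they ran from 238 to 1625 bp, with a median of 477 bp.

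Regions of all 3 DOC1 libraries were stronger in DOC1 1 and DOC1 3, at the 64.2nd and 77.7th percentile, and stood at the 47.7th in DOC1 2. Regions just outside the rule framed the recurrent ones in DOC1 1 and DOC1 3. Those of 1 DOC1 library and no lacZ library had medians of 44.4, 49.8 and 41.3 in DOC1 1, DOC1 2 and DOC1 3. Those with 1 lacZ library had 52.9, 45.2 and 59.1, and those with 2 or 3 lacZ libraries had 65.3, 54.0 and 74.0.

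**Figure D2:**
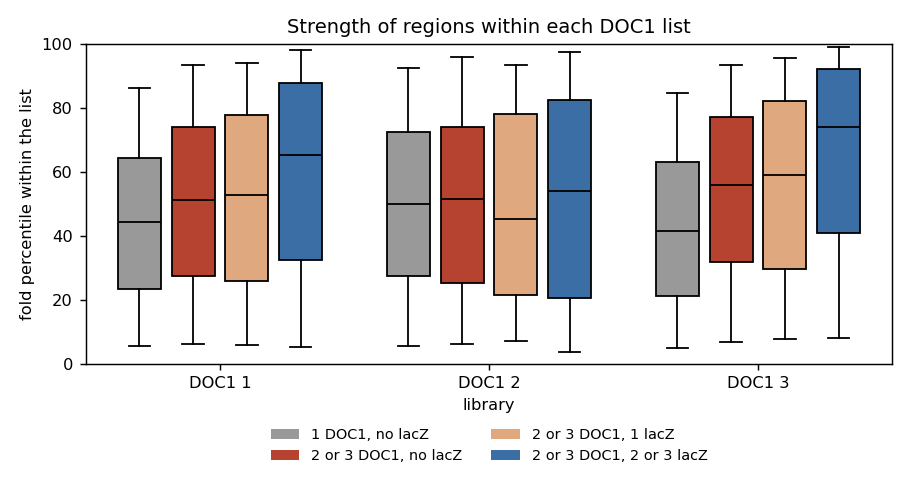
Fold percentile within each DOC1 list (vertical axis, 0 to 100) for 4 classes of regions; boxes span the 25th to 75th percentile of the regions, the line is their median and whiskers reach the 5th and 95th. The recurrent DOC1-only regions (red) have medians of 51.2, 51.6 and 55.9, below those of regions shared with 2 or 3 lacZ libraries (blue, 65.3, 54.0 and 74.0).

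The strongest regions of the pair DOC1 1 and DOC1 3 more often had a lacZ peak. The 4900 regions with a peak in both libraries were cut into 4 equal parts by the mean of their percentiles in these lists. Of the weakest part 45.0% were recurrent DOC1-only regions, then 48.9%, 44.1% and, in the strongest part, 25.3%. Regions held by all 3 lacZ libraries made up 16.4%, 17.1%, 21.2% and 42.9% of the same parts. Divided instead by local background in DOC1 1, the recurrent DOC1-only share was 49.9% in the part of lowest background, then 44.4%, 40.3% and 28.7%. Strength and background both moved with the share, and what part each has in it was not tested.

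The summits of DOC1 1 and DOC1 3 lay close together within these regions. The median distance was 82 bp over the 2000 regions with a peak in both, and 58.5% were within 100 bp. In regions shared with 2 or 3 lacZ libraries the median was 66 bp, and 63.8% were within 100 bp.

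Recurrent DOC1-only regions were found on every chromosome but Y. Chromosome 2 held most of them (228), followed by chromosomes 1 (221), 6 (198) and 17 (167). Per megabase, chromosome 17 led with 2.06, ahead of chromosomes 20 (1.62) and 19 (1.44), and X had 0.155. All regions together were also densest on these 3 chromosomes, with 16.6, 12 and 15.2 per megabase. As a share of all regions on a chromosome, they ranged from 6.75% on chromosome 13 and 8.14% on chromosome 18 to 13.4% on chromosome 20 and 13.9% on chromosome 2, beside 11.5% over the genome. Chromosome 13 had 489 regions, of which 78 recurred with DOC1; the DOC1 2 list placed 7.42% of its peaks there, and no other list placed more than 1.57%. Among those that recurred with DOC1, 42.3% of the regions on chromosome 13 lacked a lacZ peak, near the 41.5% of the genome. By that measure chromosome 14 was highest (54.2% of 83) and chromosome 19 lowest (32.8% of 259).

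**Figure D3:**
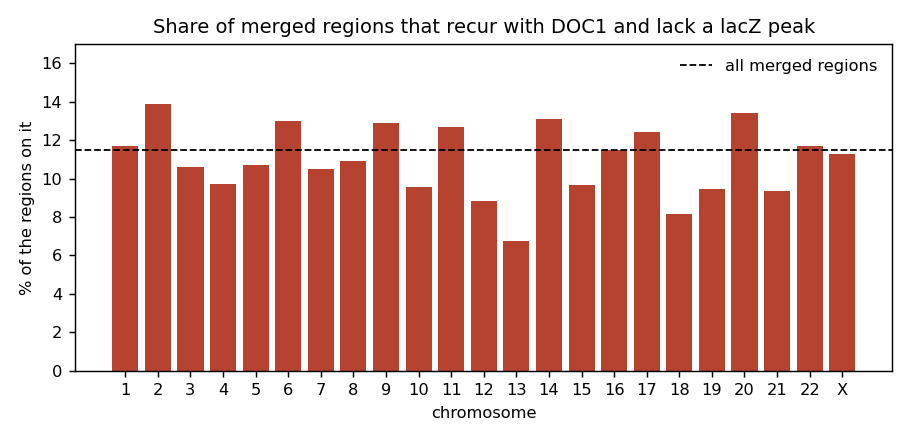
Share of the merged regions on each chromosome that are recurrent DOC1-only regions (vertical axis, percent; horizontal axis, chromosomes 1 to 22 and X). Bars range from 6.75% on chromosome 13 to 13.9% on chromosome 2, and the dashed line is the 11.5% of all regions.

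Regions of DOC1 1 and DOC1 2 lay near chromosome ends more often than those of the other pairs. Within 500 kb of an end lay 38 of the 2159 regions (1.76%) and 176 of all regions (0.936%). By library, 9 of the 53 regions of DOC1 1 and DOC1 2 lay there (17%), against 27 of the 1816 of DOC1 1 and DOC1 3 (1.49%), 1 of the 106 of DOC1 2 and DOC1 3 and 1 of the 184 of all 3 libraries.

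The regions that ranked best in exactly 2 lists came mostly from this small class. Of the 12 with the best worse percentile, 8 were in DOC1 1 and DOC1 2 and 4 in DOC1 1 and DOC1 3, and 5 of the 12 lay within 500 kb of a chromosome end. The first, chr11:80597715-80598216, had folds of 24.4 in DOC1 1 (46 reads over a background of 0.92) and 22.1 in DOC1 2 (51 reads over 1.35), the highest of any region in either list, and no peak in DOC1 3, the longest list. It lay 2270 kb from the nearest lacZ peak. The 5 at chromosome ends were chr20:62918186-62918861 (folds of 18.0 and 14.8 in DOC1 1 and DOC1 2), chr5:10255-10685 (14.3 and 15.6), chr12:95403-95851 (12.1 and 10.3), chr11:175167-175836 (10.6 and 12) and chr3:197901158-197901592 (9.97 and 12.1). The region on chromosome 5 began 10.3 kb from the end of the assembly. The region on chromosome 12 stood out by its background, 4.22 reads in DOC1 1 and 5.68 in DOC1 2. The other 2 of this pair were chr22:45022216-45022653 (12.7 and 14.8) and chr11:62795477-62795909 (11.6 and 13.5).

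The other 4 of the 12 were in DOC1 1 and DOC1 3. The region chr20:30865102-30865487 lay at the start of KIF3B, a subunit of a kinesin motor, with folds of 11.6 in DOC1 1 (27 reads) and 10.0 in DOC1 3 (53 reads). The others were chr3:193787185-193788044 (9.69 and 8.89), chr1:31956104-31956631 (10.6 and 8.56) and chr9:95882178-95882795 (9.62 and 8.52). The region on chromosome 3 had a lacZ peak 0.318 kb away. The KIF3B region was 68.8 kb from the nearest lacZ peak.

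Regions of all 3 DOC1 libraries that ranked best lay at gene starts in part. Among the best 18 by worst percentile, 9 were within 1 kb of a start: PRPF31 and TFPT (which share one region), CDK5RAP1, CCNI, EIF3F, ADAR, NDUFA11, VTI1A, SNRPB2 and REXO4. These genes were looked up after the regions were known, and the share of all regions at a gene start was not determined because no hg19 annotation was used here. PRPF31 and SNRPB2 encode splicing factors, EIF3F a subunit of a translation initiation factor, NDUFA11 a part of mitochondrial complex I, and ADAR an enzyme that edits RNA. The region at SNRPB2, chr20:16710427-16710938, had folds of 11 in DOC1 1, 6.11 in DOC1 2 and 7.31 in DOC1 3, on 27, 19 and 45 reads, and its nearest lacZ peak was 155 kb away. The region at REXO4, chr9:136282990-136283591, had folds of 8.36, 6.25 and 6.30.

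The others ranked 13 to 18 had no start that was placed within 1 kb. The region chr9:123497601-123498216 reached a fold of 13.2 in DOC1 1, with 7.82 in DOC1 2 and 6.46 in DOC1 3. The region chr11:518422-519180 had 10.0, 6.08 and 8.58, and chr1:150853993-150854729 had 9.14, 6.22 and 6.73. The region chr17:45307221-45307729 had 7.12, 6.73 and 6.60 and a lacZ peak at 4.02 kb.

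The 3 longest regions were not among the strongest in every list. The longest, chr20:25603899-25605523 (1625 bp), had no lacZ peak within 383 kb and reached a fold of 7.06 in DOC1 1, 3.91 in DOC1 2 and 6.60 in DOC1 3. The other 2 measured 1558 bp each. At chr17:73684307-73685864, upstream of ITGB4, folds were 5.08 in DOC1 1 and 5.56 in DOC1 3, and a lacZ peak lay 1.6 kb away. At chr5:1152066-1153623 they were 6.70 and 9.71.

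CHD4 peaks of lacZ cells were often near, though not within, these regions. A lacZ peak lay within 1 kb of 189 (8.75%), within 10 kb of 631 (29.2%) and within 100 kb of 1546 (71.6%). Regions of 1 DOC1 library and no lacZ library had 8.49%, 24.2% and 59.3% at the same distances. With peaks within 500 bp merged, 2115 regions met the rule, and 2022 of the 2159 (93.7%) overlapped one of them.

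Recurrent DOC1-only regions came close to each other in part. Another one lay within 10 kb of 9.77% and within 100 kb of 41.6%, with a median gap of 153 kb. The share within 10 kb was 16.7% without lacZ 1, 2.08% without DOC1 1, 0.851% without DOC1 3 and 4.32% in lists of equal length, and it grows with the number of regions in the set. Any CHD4 region lay within 10 kb of 49.4% of them, and of 48.8% of all regions. Chained with gaps of 100 kb or less, 898 of the 2159 fell into 365 clusters of 2 or more, and 1261 stood alone. Of the clusters, 258 had 2 regions, 71 had 3, 23 had 4 and 13 had 5 or more. A cluster's span runs from its first to its last recurrent DOC1-only region, and these hold no lacZ peak by the rule.

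The cluster with most regions, 9 in 259 kb at chr9:35644593-35903514, held weak peaks on a very high background. It spans TLN1, TPM2, CA9 and NPR2, genes of the actin cytoskeleton (talin and a tropomyosin), of acid balance and of a natriuretic peptide receptor. Folds in DOC1 1 were 1.97 to 3.89 over a background of 11.87 to 30.97 reads, where the median of the list was 1.59 reads. In DOC1 3 folds were 1.87 to 3.58 over 20.02 to 52 reads, where the median of the list was 3 reads. Of the 34 regions of the span, 17 held a lacZ peak. Background here was high across the span and its part in this cluster was not tested. Over the whole set, 55 regions with a peak in DOC1 1 (2.68%) had a background above 3 times the median of that list, beside 291 of its 7834 peaks (3.71%).

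**Figure D4:**
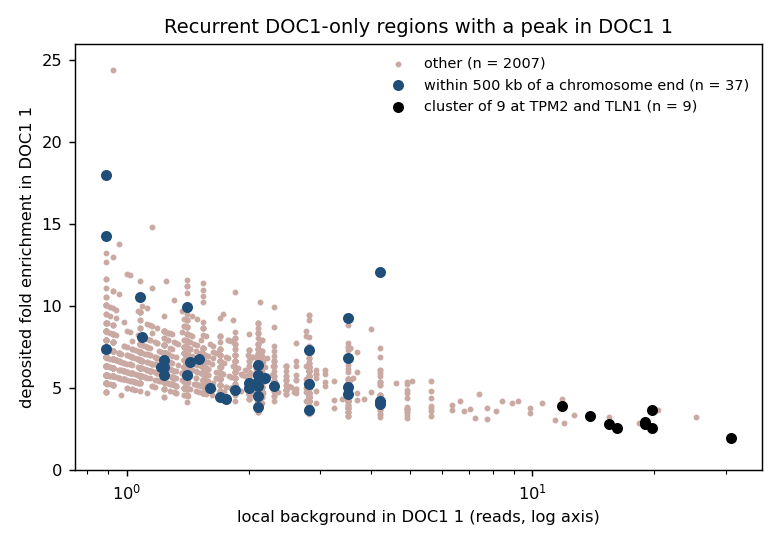
Deposited fold enrichment in DOC1 1 (vertical axis) against the local background in DOC1 1 (horizontal axis, reads, log scale) for the 2053 recurrent DOC1-only regions with a peak there; each point is a region. The 9 regions of the cluster at TPM2 and TLN1 (black) lie at low folds, 1.97 to 3.89, and high background, and 3 of the 37 regions near a chromosome end (blue) exceed a fold of 12.

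A cluster of 8 regions stretched over 329 kb from the start of FN1 toward MREG (chr2:216301126-216629855). FN1 encodes fibronectin, a matrix protein and a classic marker of the mesenchymal state. The 8 regions had folds of 4.02 to 7.41 in DOC1 1 and 3.73 to 7.27 in DOC1 3, on backgrounds of 1.08 to 4.22 and 2 to 6 reads, and 2 of them were also in DOC1 2. The region at the FN1 start, chr2:216301126-216301614, was one of the weaker ones, with folds of 4.74 in DOC1 1 (16 reads) and 4.38 in DOC1 3 (40 reads). It had a lacZ peak 2.51 kb away. The region chr2:216529510-216529954 was in all 3 libraries, with folds of 6.65, 6.28 and 7.14, and so was chr2:216629186-216629855, with 6.73, 5.48 and 7.27. The span was not free of lacZ peaks: 9 of its 22 regions held one, and 5 recurred with lacZ.

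WNT6 and WNT10A, neighbouring genes for secreted WNT ligands, lay in a cluster of 5 regions over 70 kb (chr2:219704050-219774089). Of the 6 regions of the span 1 held a lacZ peak, and the other 5 lacked one by the rule. A region 32.4 kb before the first of them held peaks in lacZ 1, lacZ 2, lacZ 3, DOC1 1 and DOC1 3. Folds were 4.72 to 7.06 in DOC1 1 and 4.68 to 7.56 in DOC1 3. Backgrounds were 1.41 to 1.63 and 2.11 to 3 reads, where the medians of the lists were 1.59 and 3 reads. The region chr2:219712183-219712792, upstream of WNT6, had folds of 7.06 (16 reads) and 7.56 (40 reads). The region at the start of WNT10A, chr2:219745004-219745374, had 4.98 (11 reads) and 4.68 (26 reads). The last one, chr2:219773289-219774089, was in all 3 libraries with folds of 7.06, 5.53 and 5.39. The lone lacZ peak within the span lay 1.06 kb from the region at chr2:219762810-219763230.

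**Figure D5:**
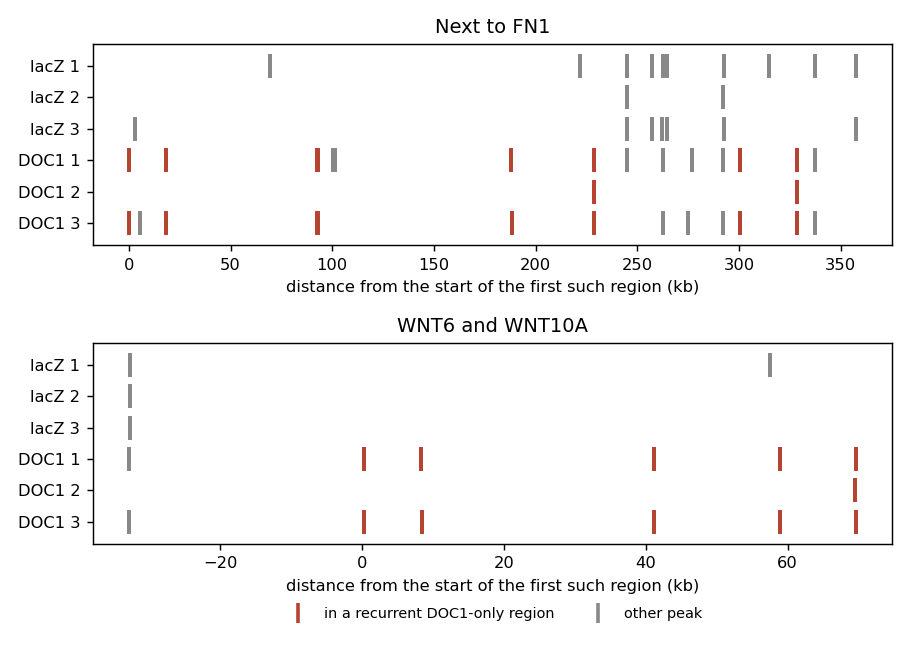
Peaks by library (rows) along the clusters next to FN1 (upper panel) and at WNT6 and WNT10A (lower panel), by distance in kb from the start of the first recurrent DOC1-only region; red marks peaks in such regions and grey marks other peaks. In the upper panel 8 red positions, of which 2 neighbours overlap as drawn, are interleaved with grey lacZ peaks, and in the lower panel 5 red positions have a grey lacZ peak between them at 1 place.

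The other 5 clusters named here held 5 to 7 regions each. On chromosome 8, 7 regions lay at chr8:144623325-144766936 and included the starts of EEF1D, a translation elongation factor, and of the zinc finger genes ZNF623 and ZNF707. Folds in DOC1 1 ran from 3.54 at EEF1D to 8.66, and 2 of the 11 regions there held a lacZ peak. A second group on the same chromosome, 5 regions at chr8:146017617-146079038, included the starts of RPL8 (a ribosomal protein), ZNF517 and ZNF7, with folds of 4.02 to 6.57 in DOC1 1 and 2.99 to 4.91 in DOC1 3. All 5 lay within 500 kb of the chromosome end.

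The interleukin-1 receptor genes IL1R2 and IL1R1 lay in a cluster of 6 regions over 132 kb (chr2:102584536-102716929). IL1R1 transmits the interleukin-1 signal and IL1R2 is its decoy. The region at an IL1R1 start, chr2:102686404-102687090, was in all 3 libraries with folds of 6.20, 5.07 and 6.10. Of the 16 regions of this span 8 held a lacZ peak. A cluster of 6 around TRIM27 in the extended MHC (chr6:28805173-28950356) had folds of 4.50 to 6.43 in DOC1 1, and 10 of 22 regions held a lacZ peak. The last 6 lay around SSTR2, COG1 and CDC42EP4 (chr17:71099692-71308643), with folds of 3.71 to 6.43 in DOC1 1 and a lacZ peak in 6 of 15 regions. SSTR2 is a somatostatin receptor, COG1 a Golgi protein, and CDC42EP4 an effector of CDC42, a regulator of cell polarity.

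Genes of the epithelial-mesenchymal transition and of the squamous cell were looked at next, through 10 lists with 117 genes. Within 50 kb of a listed gene lay 62 recurrent DOC1-only regions (2.87%) and 473 of all regions (2.51%). Each region was counted for its nearest listed gene only. Counted so, the former fell to 47 of the 117 genes and the latter to 106, and a gene beside another listed gene may have more. Recurrent DOC1-only regions were thus 13.1% of the regions near listed genes, beside 11.5% over the genome. In lists of equal length 1.8% of the recurrent DOC1-only regions lay near a listed gene, and the share of all regions in those lists was not determined. By list the share of nearby regions that were recurrent DOC1-only ranged from 4 of 48 (receptor tyrosine kinases) to 3 of 15 (SWI/SNF subunits), on numbers too small to rank the lists.

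At the starts of listed genes the regions were few and not strong. Within 1 kb of a listed start lay 8 (0.371%), beside 54 of all regions (0.287%), 3 of those that recurred in both groups (0.145%) and 1 of the 844 of the mirror image. The 8 genes were SNAI2, FN1, TNC, TFAP2A, CD44, GADD45A, ARID1A and SMARCE1. Their folds ran from 4.21 at ARID1A to 6.66 at CD44 in DOC1 1, and from 3.99 at ARID1A to 5.98 at CD44 in DOC1 3.

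Among the EMT transcription factors, 2 of 21 nearby regions were recurrent DOC1-only. SNAI2 encodes a repressor of epithelial genes, and the region at its start, chr8:49834226-49834546, had folds of 5.52 in DOC1 1 (19 reads) and 4.13 in DOC1 3 (38 reads), with the nearest lacZ peak 225 kb away. In ZEB2, a repressor of CDH1, the region chr2:145147196-145147787 lay 130 kb into the gene, with folds of 5.90 and 4.11. SNAI1, ZEB1, TWIST1 and TWIST2 had no recurrent DOC1-only region within 50 kb.

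Of 37 regions near epithelial adhesion and identity genes, 5 were recurrent DOC1-only. CDH1 encodes E-cadherin, the main adhesion molecule of epithelia, and the region chr16:68824081-68824442 lay 53 kb into it, with folds of 7.01 in DOC1 1 (14 reads) and 4.57 in DOC1 3 (22 reads). Its nearest lacZ peak was 81.9 kb away. CLDN4, a tight junction claudin, had one region on either side, with folds of 7.48 and 4.68 at chr7:73236985-73237342 and 5.81 and 5.02 at chr7:73255934-73256663. ST14 encodes the membrane protease matriptase and PKP3 a desmosomal plakophilin. The region 36 kb upstream of ST14, chr11:129994028-129994389, had folds of 7.07 and 6.16, and that near PKP3, chr11:355511-356105, had 5.14 and 7.14.

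Mesenchymal and TGF-beta response genes had 10 recurrent DOC1-only regions of 79. In TGFBR2, a receptor for TGF-beta, the region chr3:30700908-30701551 was in all 3 libraries, with folds of 6.40, 5.88 and 6.17 on 13, 16 and 32 reads, and the nearest lacZ peak 50.9 kb away. Its partner receptor TGFBR1 had a region 5 kb into the gene, chr9:101871828-101872195, with folds of 5.63 and 5.57. TNC encodes tenascin C, a matrix protein of wounds and tumours, and the region at its start, chr9:117880198-117880781, had folds of 5.94 in DOC1 1 (15 reads) and 4.47 in DOC1 3 (31 reads). FN1 had 2, among those described above. VIM had 1 region 26 kb upstream and INHBA had 1 region 2 kb upstream. Of these and the 2 regions about 50 kb from COL1A1, 3 had a peak in DOC1 1, with folds between 4.50 and 5.33.

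Squamous genes had 7 of 41. TP63, the master regulator of squamous epithelium, had 3 recurrent DOC1-only regions of 8 nearby, spread from 42 kb upstream to beyond its end. The one beyond the end, chr3:189616346-189616731, was in all 3 libraries with folds of 5.78, 4.95 and 5.73, and the others were weaker in DOC1 3 or absent from it. TFAP2A, an epidermal transcription factor, also had 3, of 7 nearby. The region at one of its starts, chr6:10415158-10415497, had folds of 5.41 in DOC1 1 (12 reads) and 5.10 in DOC1 3 (29 reads). The one 37 kb upstream, chr6:10452055-10452498, had 5.45 and 7.31, the latter at the 90.3rd percentile of the DOC1 3 list. KLF4 had 1, with 4.43 and 5.62.

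Hemidesmosome, laminin and integrin genes, some of which fix epithelial cells to the basement membrane, had 12 of 88. These regions lay near 9 of the 14 genes, and all 14 had some CHD4 region within 50 kb. ITGB4, the integrin of the hemidesmosome, had 3 of 14, of which 2 lay next to each other, 34 and 32 kb upstream. The third, chr17:73760641-73761278, had folds of 5.75 in DOC1 1 and 6.98 in DOC1 3. The region 19 kb upstream of ITGAV, chr2:187435263-187435817, was in all 3 libraries with 8.49, 5.58 and 6.85, and that 8 kb upstream of ITGB6, chr2:161064567-161064978, had 8.16 and 6.06. Both genes encode integrin chains that take part in the activation of TGF-beta. At the CD44 start, chr11:35160246-35160944 had folds of 6.66 in DOC1 1 (15 reads) and 5.98 in DOC1 3 (34 reads), and its nearest lacZ peak was 21.9 kb away.

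AP-1 genes had 11 of 66, near 7 of 9 genes, and all 9 had some CHD4 region within 50 kb. AP-1 is a dimer of JUN, FOS and related factors that responds to growth and stress signals. FOSL2 had 2 inside the gene, of which chr2:28629223-28630117 had folds of 10.4 in DOC1 1 (23 reads, the 97.7th percentile) and 5.79 in DOC1 3 (31 reads). The other, chr2:28631940-28632506, had 7.12 and 5.85. FOSB, JUND and ATF3 also had 2 each, and JUN, JUNB and BATF 1. Near JUNB the closest lacZ peak was 0.094 kb away. Those of ATF3 were farther, at 49.0 and 106 kb.

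Receptor tyrosine kinase genes had 4 of 48. The strongest, chr17:37896684-37897394, lay in GRB7 and 53 kb from the start of ERBB2, but a lacZ peak was 0.414 kb away. Its folds were 9.06 in DOC1 1, 6.74 in DOC1 2 and 7.34 in DOC1 3. Near IGF1R, EPHA2 and AXL, folds were 4.62 to 7.06 in DOC1 1 and 3.46 to 4.55 in DOC1 3. Cell cycle genes had 4 of 38. The region 2 kb upstream of CCND1 (cyclin D1), chr11:69453200-69454014, had folds of 7.69 and 5.48 and a lacZ peak at 1.15 kb. The region at the start of GADD45A, a stress-response gene, chr1:68150737-68151112, had 5.81 (16 reads) and 5.13 (37 reads), with no lacZ peak within 50.7 kb. CDKN2B and E2F1 had 1 each.

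Genes of the complexes themselves were also among those with such regions. NuRD subunit genes had 4 of 40 (10.0%, beside 11.5% over the genome). The region in CHD3 lay 4 kb from its start. Those near CHD4, MTA2 and RBBP4 lay 39, 44 and 39 kb from the gene starts. The strongest in DOC1 1, near RBBP4, had folds of 7.79 and 5.00. CDK2AP1, the gene of DOC1, had no CHD4 region of any class within 50 kb. SWI/SNF genes had 3 of 15. ARID1A, the DNA-binding subunit often mutated in cancer, had 2 upstream, with folds of 4.98 and 4.02 at chr1:27019511-27020045 and 4.21 and 3.99 at chr1:27021848-27022249, low in both lists. At the start of SMARCE1, chr17:38804019-38804582 had peaks in DOC1 2 (fold 5.12, 26 reads) and DOC1 3 (fold 5.23, 51 reads) and none in DOC1 1, and its nearest lacZ peak was 96.2 kb away.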

How the data were processed

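Per the submitters' processing notes, Trimmomatic 0.33, BWA 0.7.12-r1039, SAMtools 1.2 and MACS2 2.1.1.20160309 were used on hg19 (GRCh37); the command lines and the caller's control library are not stated in the labels. The deposited narrowPeak lists, 1 per CHD4 library and not pooled, hold for each peak a deposited fold enrichment (a ratio), a deposited −log10 p-value and −log10 q-value, a deposited score (10 times the −log10 q-value, rounded down) and the summit. The largest deposited q-value was 0.0089 to 0.0097. Depth per library is not given in the lists.

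Peaks overlapping by 1 bp were merged (Python 3.11.15, pandas 2.3.3, numpy 2.4.6, scipy 1.17.1; matplotlib 3.10.9 for figures). A region takes the strongest peak of each list. Reads at the summit and background were solved from the deposited fold and p-value, assuming a whole number of reads times 1 factor per library, and matched within 0.005 in log10 p for 100.0% of the peaks of each list. Merging and read recovery were tested on simulated data. Reads are not independent molecules, since no molecular identifiers are named.

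Gene positions on hg19 and chromosome lengths were recalled from general knowledge; genes were rounded to 1 kb. All 157 were on the same chromosome in RefSeq GRCh38.p14, and 0 of 134 neighbouring pairs stood in another order, which does not check the distances. Isoform starts can differ. Members, lists and named regions were chosen with earlier results of these data known, and 40 of the genes were looked up after the regions were seen.

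Named regions were the 12 of exactly 2 libraries with the best worse percentile, ranks 13 to 18 of 3 libraries, the 8 clusters with most regions (gaps of 100 kb or less; among ties, the shorter span first), the 3 longest regions, and those within 50 kb of listed genes. No test was run, since the peaks chose the regions. Alternatives were a −log10 q-value of 3 or more, summits with 100 bp on either side, merging within 500 bp, no lacZ peak within 1 kb, lists of equal length, other distances, and each library left out. Some results near listed genes are not reported here.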

Additional observations from a re-analysis of the deposited data

How the results depend on the processing

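Of 88 alternative values, 60 stayed within the interval of the reported value (95% exact binomial for a share, order statistics for a median percentile) or, for the number of regions, within 1.5 times. The intervals treat regions as independent draws, which they are not, and measure no spread between libraries. No paired analysis was possible because the results come from no test. Among the settings that keep all 6 libraries, lists of equal length changed the number most, with 556 regions in place of 2159, 52.3% of them in DOC1 1 and DOC1 3 alone, median percentiles of 53.0 in DOC1 1 and 51.4 in DOC1 3, 4.32% with another such region within 10 kb, 22.7% with a lacZ peak within 10 kb and 1.8% within 50 kb of a listed gene. This setting removes peaks, so part of the fall is by construction. The share with another such region within 10 kb was 7.19% with merging within 500 bp, 8.48% with no lacZ peak within 1 kb and 41.6% within 100 kb, against 9.77%. The share with a lacZ peak within 10 kb was 33.0% with summits, 24.4% with merging within 500 bp, 22.4% with no lacZ peak within 1 kb and 71.6% within 100 kb, against 29.2%. Within 10 kb of a listed gene lay 1.57%, against 2.87% within 50 kb. Wider or narrower distances and the 1 kb margin change these shares by construction, and the cause of the other changes was not tested.

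With 1 library left out, the number of regions ranged from 235 to 2929, the share in DOC1 1 and DOC1 3 alone from 0% to 100% (fixed by which library is left out), the median percentile from 50.5 to 65.2 in DOC1 1, from 48.0 to 53.1 in DOC1 2 and from 55.6 to 73.7 in DOC1 3. The share with another such region within 10 kb ranged from 0.851% to 16.7%, that with a lacZ peak within 10 kb from 22.8% to 29.7% and that near a listed gene from 2.55% to 3.12%. Leaving out a DOC1 library asks for 2 of 2, and leaving out a lacZ library asks for fewer absences. The median summit held 15 to 38 reads over the 6 lists, which limits what absence from a list can show.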

Other observations

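A further 6 regions of DOC1 1 and DOC1 3 stood at gene starts and were picked after their values were seen, so they are values only. The region at COPS7A, a subunit of the COP9 signalosome, chr12:6832851-6833525, had folds of 9.14 in DOC1 1 (18 reads) and 9.89 in DOC1 3 (51 reads). The region at KDM4B, a histone demethylase, chr19:4968296-4968934, had 8.99 (16 reads) and 9.61 (41 reads). At BRWD1, a bromodomain gene, chr21:40685527-40685853 had 8.99 and 8.26. At MRPL3, a mitochondrial ribosomal protein, chr3:131221572-131221993 had 11.6 and 7.83, and the nearest lacZ peak was 1610 kb away. The regions at SNX1, a sorting nexin (chr15:64387992-64388439), and at TDRD7, a tudor domain gene (chr9:100173941-100174258), had 8.66 and 7.27 and 8.99 and 7.59. LacZ peaks were between 52.9 and 1610 kb away.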
